A study of Mus musculus with 4 samples.

Results

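The 60 genes described here encode mitogen-activated protein (MAP) kinases, the kinases above and just below them, and the dual-specificity phosphatases (Dusp). They are the genes, of 11883 in the authors' deposited table, whose symbol begins with Dusp, Mapk, Map2k, Map3k, Map4k or Mapkapk followed by a digit. The symbol alone chose them, and no measured value did. They comprise 19 phosphatases, 36 kinases and 5 further genes with such symbols, which are 4 genes for proteins that bind or scaffold MAP kinases and the antisense RNA gene Map2k3os.

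RNA was sequenced from T helper 2 (Th2) cells that were sorted, from digested lungs of C57BL/6 mice, as live cells carrying CD4 together with T1/ST2, which is the receptor for interleukin-33. The treatment of every sample was chronic papain, papain being a protease used as an airway allergen. The 2 genotypes, with 2 samples each, are Klrg1Cre Gata3(fl/fl), with a Cre recombinase named for the lymphocyte receptor gene Klrg1, and Gata3(fl/fl), with the same floxed Gata3 and no Cre. They are called Klrg1Cre and control below, and the file headers name the groups ILC2 deficient and WT, ILC2 being group 2 innate lymphoid cells. WT was taken as the genotype without Cre, a link that the labels do not state. No group carried Klrg1Cre without floxed Gata3, so the Cre allele, the loss of Gata3 wherever Cre acts and a lack of ILC2 cannot be told apart. The labels do not give the age or sex of the mice, nor if each sample is a different mouse, and the p-values rest on a spread that may be only technical. Where a bulk sample is compared, fewer cells of a type and less RNA per cell cannot be told apart.

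MAP kinases are switched on by a relay. A MAP4K or a small GTPase activates a MAP3K, which phosphorylates a MAP2K, which phosphorylates the MAP kinase itself on a threonine and a tyrosine of its activation loop. The ERK branch carries antigen receptor and growth signals, and the JNK and p38 branches carry stress and cytokine signals. Dual-specificity phosphatases of the MAP kinase phosphatase (MKP) type remove both phosphates, and several are themselves induced by the kinases they oppose. In Th2 cells ERK activity is known to stabilise the GATA3 protein, and interleukin-33 acts through ST2 and MyD88 on p38.

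The deposited means rise in steps of whole reads, and the library totals that these steps give were 26019065 and 14564426 reads for the larger and the smaller Klrg1Cre library, against 33379572 and 31961572 reads for the larger and the smaller control library. Reads of Rn45s, the ribosomal RNA precursor, made up 67.1% in Klrg1Cre and 51.4% in control, and those of all other listed genes together 18.2% and 17.8%. Gata3, the floxed gene, averaged 293.9 CPM in Klrg1Cre, against 221.4 CPM in control, and where its reads fall relative to the floxed part is not known. Levels are deposited group means in CPM, which are counts scaled to a common library size. The value in each library could be worked out for 31 of the 60 genes in both genotypes, and for the others the group mean is the only level. The genes of the sort were present, with Cd4 at 167.6 CPM for Klrg1Cre against 150.1 CPM for control and Il1rl1, which encodes ST2, at 59.1 CPM for Klrg1Cre against 68.0 CPM for control, as was the T cell gene Cd3e, at 76.6 CPM for Klrg1Cre against 73.04 CPM for control.

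None of these genes was called. So few of all genes were called that a count of 0 in a set this small says little about it. In the authors' deposited table, 0 of the 19 phosphatases and 0 of the 36 kinases passed an adjusted p of 0.05 over all genes, against 7 of all 11883 genes (0.0589%). Without adjustment, 1 phosphatase (5.26%) and 3 kinases (8.33%) had a deposited p below 0.05, where 7.09% of all genes did, so neither share stood far from that of the whole table. Limma, run on the genes whose libraries could be worked out and that had a mean of at least 1 CPM, called 0 of 14 phosphatases and 0 of 11 kinases (adjusted p, 0.165% of its 4242 genes called). At an unadjusted p below 0.05 it gave 1 phosphatase and 1 kinase, against 7.87% of its genes. Most ratios were small: 53 of the 60 genes lay within 1.5-fold of equality, and 17.2% of all genes lay outside that band. Of the 7 outside it, only Map3k14 and Map4k4 had a mean over both genotypes of at least 1 CPM.

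**Figure D1:**
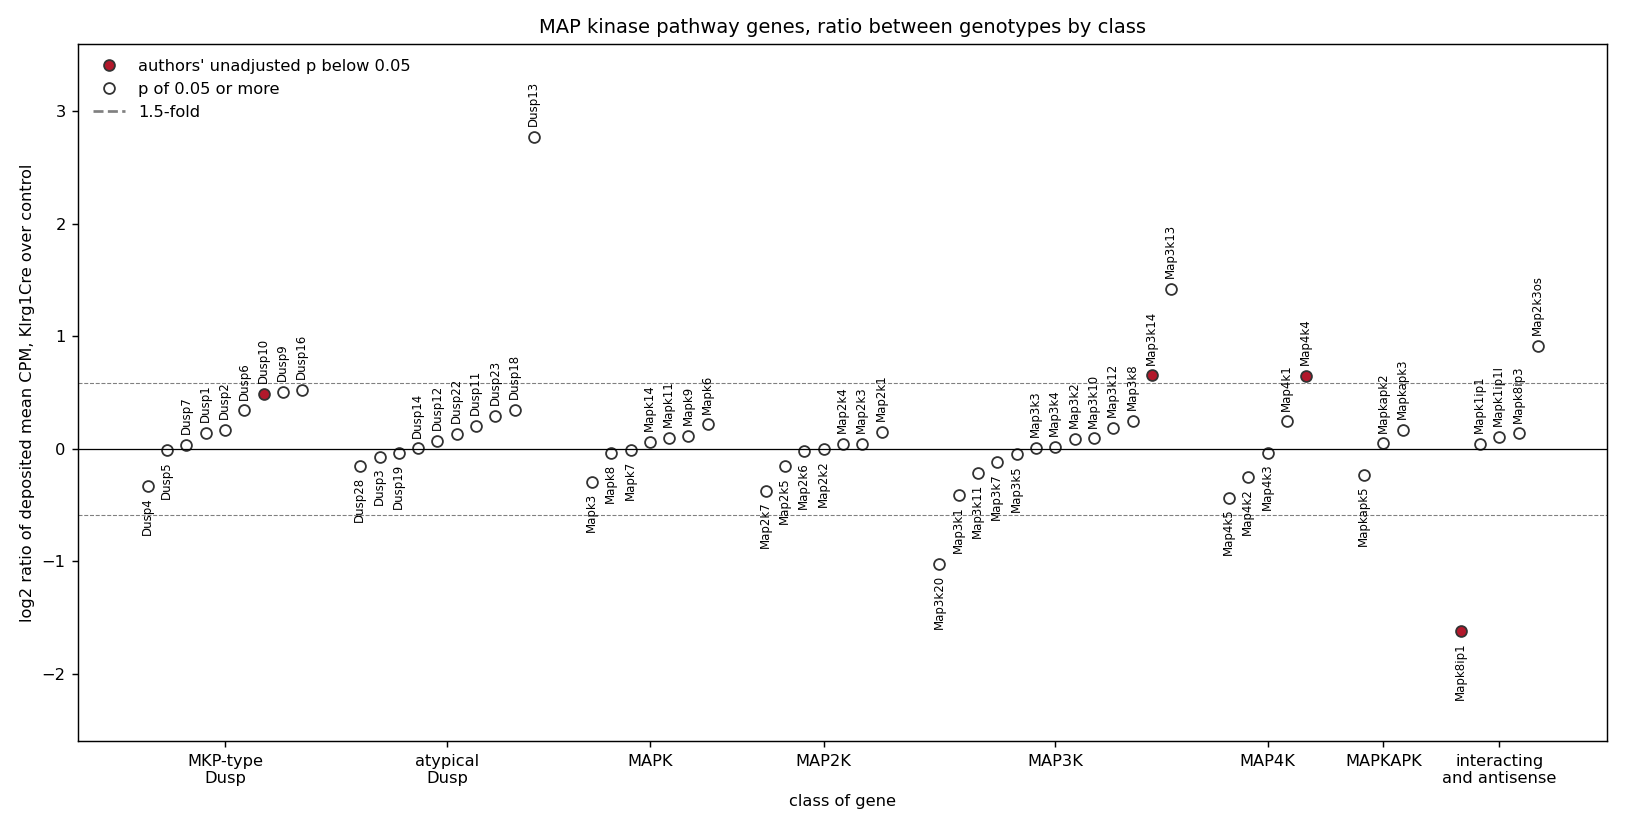
The log2 ratio of deposited mean CPM, Klrg1Cre over control, is plotted by class for 59 of the 60 genes, with filled points where the authors' unadjusted p was below 0.05 and dashed lines at 1.5-fold. The 4 filled points are Dusp10, Map3k14, Map4k4 and Mapk8ip1, and 52 of the 59 points lie between the dashed lines.

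The phosphatases had higher means in Klrg1Cre in 14 of 19 genes, where 50.6% of all genes did. Their median log2 ratio was 0.14, against 0.01 over all genes. It was also 0.14 over the phosphatases with a mean of at least 5 CPM. With 1 CPM added to every mean it was 0.135, and with 5 CPM added 0.042. Adding 5 CPM draws the ratios of low genes towards equality by arithmetic. Of the 16 phosphatases with both genotypes worked out per library, 4 had both Klrg1Cre libraries above both control libraries, against 19.3% of all 5351 genes that could be so compared, and 0 had both below, against 18.3%. The 4 were Dusp10, Dusp6, Dusp11 and Dusp13.

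Dusp10 encodes an MKP that acts on p38 and JNK and is known in mouse to restrain interleukin-33-driven cytokine production by ST2-positive Th2 cells. Its level was 22.1 and 22.5 CPM in the Klrg1Cre libraries, against 15.7 and 16.1 CPM in the control libraries. The genotypes did not overlap, and within each the libraries lay close together, 1.02-fold apart in Klrg1Cre and 1.03-fold apart in control. The deposited ratio was 1.40, with an unadjusted p of 0.0115 and an adjusted p of 0.551 in the authors' deposited table. On the log2(CPM + 1) scale limma gave a difference of 0.46 ± 0.15 (SE; 95% interval 0.13 to 0.80; adjusted p = 0.444), so Dusp10 did not pass either adjustment. It had the lowest deposited p of the 60 genes.

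Promoter sequence is shown for Dusp10 and for the kinase gene Map3k14, the genes worked out per library with a deposited p below 0.05, and for Dusp1, an MKP gene known to be switched on by the cyclic AMP-responsive factor CREB. Each is the 250 bases before the annotated start, 5′ to 3′ on the gene's strand, from RefSeq on GRCm38.p6. Capitals mark a match to the cyclic AMP response element (CRE), TGACGTCA, and other bases are in lower case.
Dusp10 (chr1:184034131-184034380, plus strand): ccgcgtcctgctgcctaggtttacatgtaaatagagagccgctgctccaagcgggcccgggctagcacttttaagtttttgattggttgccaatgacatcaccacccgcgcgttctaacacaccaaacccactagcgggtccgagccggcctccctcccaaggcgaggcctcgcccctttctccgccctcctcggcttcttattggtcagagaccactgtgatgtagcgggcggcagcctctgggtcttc
Map3k14 (chr11:103267402-103267651, minus strand): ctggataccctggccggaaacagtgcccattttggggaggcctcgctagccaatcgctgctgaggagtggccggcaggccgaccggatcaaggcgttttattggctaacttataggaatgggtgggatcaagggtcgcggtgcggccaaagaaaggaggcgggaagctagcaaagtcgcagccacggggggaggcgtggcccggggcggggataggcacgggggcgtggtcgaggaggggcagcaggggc
Dusp1 (chr17:26508473-26508722, minus strand): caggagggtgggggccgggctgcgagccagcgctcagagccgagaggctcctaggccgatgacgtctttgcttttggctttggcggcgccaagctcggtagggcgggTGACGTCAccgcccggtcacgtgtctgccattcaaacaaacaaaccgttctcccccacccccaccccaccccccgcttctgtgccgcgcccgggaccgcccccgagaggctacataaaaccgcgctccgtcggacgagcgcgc
These windows were searched on both strands for the CRE, the AP-1, ETS and TATA motifs and the CArG box. The CRE of Dusp1, at position -143 from the start, was the only match. Of the 50 genes with a promoter in that table, 1 held the CRE, which 1.55% of all 32851 such windows held. The AP-1 motif, TGANTCA, was found for 4 of the 50 genes (Dusp13, Map2k6, Map2k7 and Map3k10) and in 6.75% of all windows. The CArG box of serum response factor was found for Dusp5 alone (1.47% of all windows), while the ETS motif, CCGGAAG, was found for 3 genes (6.91% of all windows). The TATA motif, TATAAA, was found for 2 genes, Map2k6 and Map2k7 (12.4% of all windows). The GC box (GGGCGG), read by Sp1-type factors, was found for 34 of the 50 genes and in 32.7% of all windows, and it occurs in all 3 windows printed here. For every motif a gene counted if any of its windows matched, while the shares are per window. The windows also cover genes outside the authors' deposited table, so counts and shares are not on the same footing. For Dusp10 and Map3k14 the other motifs have no match, which says only that those letters are not in these windows.

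Of the MKPs of the nucleus, which are classical immediate early genes, Dusp1 had 69.9 and 116.9 CPM in the Klrg1Cre libraries and 72.5 and 96.7 CPM in the control libraries. Both control values lay within the range of the Klrg1Cre values. The Dusp1 ratio was 1.10 in the authors' deposited table (adjusted p = 0.942), and without the smaller Klrg1Cre library its log2 ratio was -0.27, against 0.14 with all libraries. The order of the Klrg1Cre libraries varied among immediate early genes outside the family. Junb, an AP-1 subunit, was at 294.4 and 451.9 CPM in the larger and the smaller Klrg1Cre library. In the larger and the smaller control library it was at 276.1 and 322.4 CPM. Jun had 58.6 and 49.6 CPM in the larger and the smaller Klrg1Cre library, and 56.5 and 62.0 CPM in the larger and the smaller control library.

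Dusp5, which anchors inactive ERK in the nucleus, had 18.5 and 24.6 CPM in Klrg1Cre, against 19.1 and 24.4 CPM in control. These ranges overlapped, and limma bounded the difference between -0.43 and 0.41 (95% interval, log2(CPM + 1)). Dusp2, a nuclear phosphatase abundant in activated lymphocytes, had 7.57 and 6.66 CPM in Klrg1Cre, against 4.43 and 8.23 CPM in control, where the control libraries lay 1.86-fold apart. For Dusp4, an inducible nuclear MKP, the values were 7.23 and 12.8 CPM in the Klrg1Cre libraries, against 12.49 and 12.7 CPM in the control libraries. Only the larger Klrg1Cre library was low, and without it the log2 ratio of Dusp4 was 0.026, against -0.33 with all libraries.

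Dusp6 is the cytoplasmic phosphatase of ERK and a standard readout of ERK activity. It had 37.3 and 30.6 CPM in the Klrg1Cre libraries, against 29.1 and 24.5 CPM in the control libraries. All Klrg1Cre values lay above all control values, by a small gap. The ratio of 1.27 did not pass in the authors' deposited table (p = 0.0677, adjusted p = 0.726), and limma gave 0.33 ± 0.16 (SE; 95% interval -0.03 to 0.69; adjusted p = 0.681). Dusp7, also directed at ERK, stood at 5.42 and 5.15 CPM in Klrg1Cre, against 5.81 and 4.51 CPM in control. Dusp16, which binds JNK and p38, averaged 2.73 CPM in Klrg1Cre, against 1.90 CPM in control, a ratio of 1.44 with an adjusted p of 0.798 in the authors' deposited table. Dusp9 had few reads, 19 and 2 in the larger and the smaller Klrg1Cre library and 11 and 9 in the larger and the smaller control library. Per library total the pooled ratio was 1.69 (exact 95% interval 0.872 to 3.29, counting error only), and the ratio in the authors' deposited table was 1.42 (adjusted p = 0.992).

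**Figure D2:**
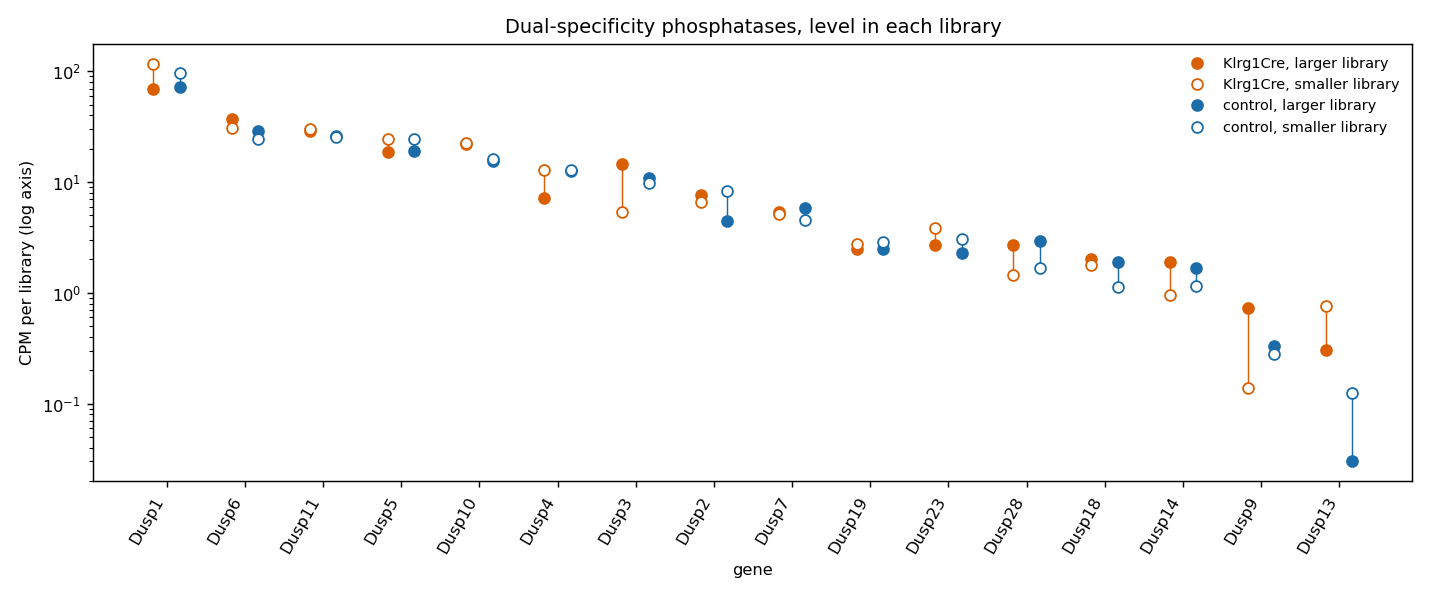
CPM in each library on a log axis is plotted for the 16 phosphatases worked out per library, Klrg1Cre in orange left of control in blue, with filled points for the larger and open points for the smaller library of a genotype. Dusp10, Dusp6, Dusp11 and Dusp13 have both orange points above both blue points, and the Klrg1Cre libraries lie farthest apart for Dusp9 (5.32-fold), Dusp3 (2.66-fold) and Dusp13 (2.46-fold).

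The atypical phosphatases, which lack the MAP kinase-binding domain of the MKPs and often act on other substrates, numbered 10, and 0 had a deposited p below 0.05, where 7.09% of all genes did, so that a count of 0 among so few says little about the class. Dusp11, which acts on the triphosphate ends of RNA, had 28.9 and 30.3 CPM in Klrg1Cre, against 25.9 and 25.6 CPM in control. The libraries of the 2 genotypes did not overlap, yet the ratio was only 1.15, with an adjusted p of 0.791 in the authors' deposited table. Dusp3 was at 14.5 and 5.42 CPM in Klrg1Cre, a 2.66-fold spread within 1 genotype, against 10.99 and 9.89 CPM in control. Dusp13 had the highest ratio of the 60 genes, 6.84, but from 8 and 11 reads in the Klrg1Cre libraries and 1 and 4 reads in the control libraries. Its p was just above 0.05 (adjusted p = 0.704 in the authors' deposited table), and the ratio of pooled reads, 6.12, had an exact 95% interval of 2.21 to 20.97 that covers counting error only. Dusp14, Dusp18, Dusp19, Dusp23 and Dusp28 had overlapping libraries, with log2 ratios of deposited means between -0.15 and 0.34. Dusp12 and Dusp22, known as group means only, had 3.83 and 2.37 CPM in Klrg1Cre, against 3.65 and 2.16 CPM in control.

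The kinases were centred on equality. Higher means in Klrg1Cre were found for 19 and lower means for 17 in the authors' deposited table, with a median log2 ratio of 0.01, the same as over all genes to this precision. Among those with a deposited p below 0.05, Map3k14 and Map4k4 had higher means in Klrg1Cre, as 3.72% of all genes did. Of the 14 kinases worked out per library, 2 had both Klrg1Cre libraries above both control libraries (Map3k14 and Map3k13), against 19.3% of all genes so compared, and 2 had both below (Mapk3 and Map3k1), against 18.3%.

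Of the MAP kinases, Mapk3, which encodes ERK1, had 3.38 and 4.19 CPM in Klrg1Cre, against 4.61 and 4.66 CPM in control. Both Klrg1Cre libraries were below both control libraries, but the log2(CPM + 1) difference of -0.24 ± 0.22 (SE) from limma did not pass (adjusted p = 0.852). Mapk7, which encodes ERK5, and Mapk6, which encodes the atypical ERK3, had deposited means of 16.8 and 9.71 CPM in Klrg1Cre, against 16.9 and 8.36 CPM in control.

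The JNK genes Mapk8 and Mapk9 had deposited means of 2.62 and 9.85 CPM in Klrg1Cre, against 2.68 and 9.12 CPM in control. For p38, Mapk14 had 11.9 CPM in Klrg1Cre, against 11.4 CPM in control, and Mapk11 had 4.84 and 8.72 CPM in the Klrg1Cre libraries and 6.11 and 6.57 CPM in the control libraries. None of these 4 genes had an adjusted p below 0.925 in the authors' deposited table. For Mapk11 the interval from limma, -0.54 to 0.61 on the log2(CPM + 1) scale, does not exclude differences of about the size seen for Dusp10.

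The 7 MAP2K genes had deposited log2 ratios from -0.37 (Map2k7, an activator of JNK, 6.24 CPM in Klrg1Cre against 8.09 CPM in control) to 0.15 (Map2k1). Map2k1 and Map2k2 encode the activators of ERK. Map2k1 had 25.8 and 31.3 CPM in the Klrg1Cre libraries and 25.4 and 26.2 CPM in the control libraries, which overlapped, and Map2k2 averaged 42.8 CPM in Klrg1Cre, against 42.9 CPM in control. The p38 activators Map2k3 and Map2k6 stood at 62.8 and 1.59 CPM in Klrg1Cre, against 60.9 and 1.61 CPM in control. Map2k4, which acts on JNK and p38, had 4.20 CPM in Klrg1Cre, against 4.08 CPM in control. Map2k5, the activator of ERK5, had 5.13 CPM in Klrg1Cre, against 5.71 CPM in control.

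Map3k14 encodes NIK, the kinase that starts the non-canonical NF-kappaB pathway and is named for its place in this family rather than for a role in MAP kinase signalling. Its libraries held 7.26 and 6.59 CPM in Klrg1Cre, against 5.12 and 3.69 CPM in control. All Klrg1Cre values lay above all control values, and the control libraries were 1.39-fold apart. The deposited ratio was 1.57 (p = 0.0297, adjusted p = 0.637 in the authors' deposited table), and limma gave 0.56 ± 0.22 on the log2(CPM + 1) scale (SE; 95% interval 0.07 to 1.06; adjusted p = 0.543). Leaving out any 1 library left its log2 ratio between 0.44 and 0.91.

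Map3k1, which feeds JNK and ERK, pointed the other way, at 11.9 and 14.4 CPM in Klrg1Cre, against 16.1 and 18.9 CPM in control. The genotypes did not overlap, and the authors' deposited table gave a p of 0.0503, just above the unadjusted threshold, with an adjusted p of 0.704. Map3k11, a mixed-lineage kinase upstream of JNK, had 23.7 and 27.2 CPM in Klrg1Cre, against 26.2 and 32.7 CPM in control, which overlapped. Map3k7, which encodes TAK1 of the interleukin-33 and antigen receptor pathways, averaged 3.04 CPM in Klrg1Cre, against 3.30 CPM in control. Map3k8, which encodes TPL2, an activator of the ERK branch, stood at 6.14 CPM in Klrg1Cre, against 5.18 CPM in control. Map3k4, an activator of p38 and JNK that binds GADD45 proteins, had 10.997 CPM in Klrg1Cre, against 10.9 CPM in control. Map3k13 rested on 29 reads in Klrg1Cre and 16 reads in control (pooled ratio 2.92, exact 95% interval 1.53 to 5.75, counting error only), with an adjusted p of 0.764 in the authors' deposited table. Map3k2, Map3k3, Map3k5 and Map3k10 had overlapping libraries and log2 ratios of deposited means between -0.05 and 0.09. Map3k12 had 3.55 CPM in Klrg1Cre, against 3.12 CPM in control, and Map3k20, which encodes ZAK, had 0.537 CPM in Klrg1Cre, against 1.09 CPM in control.

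**Figure D3:**
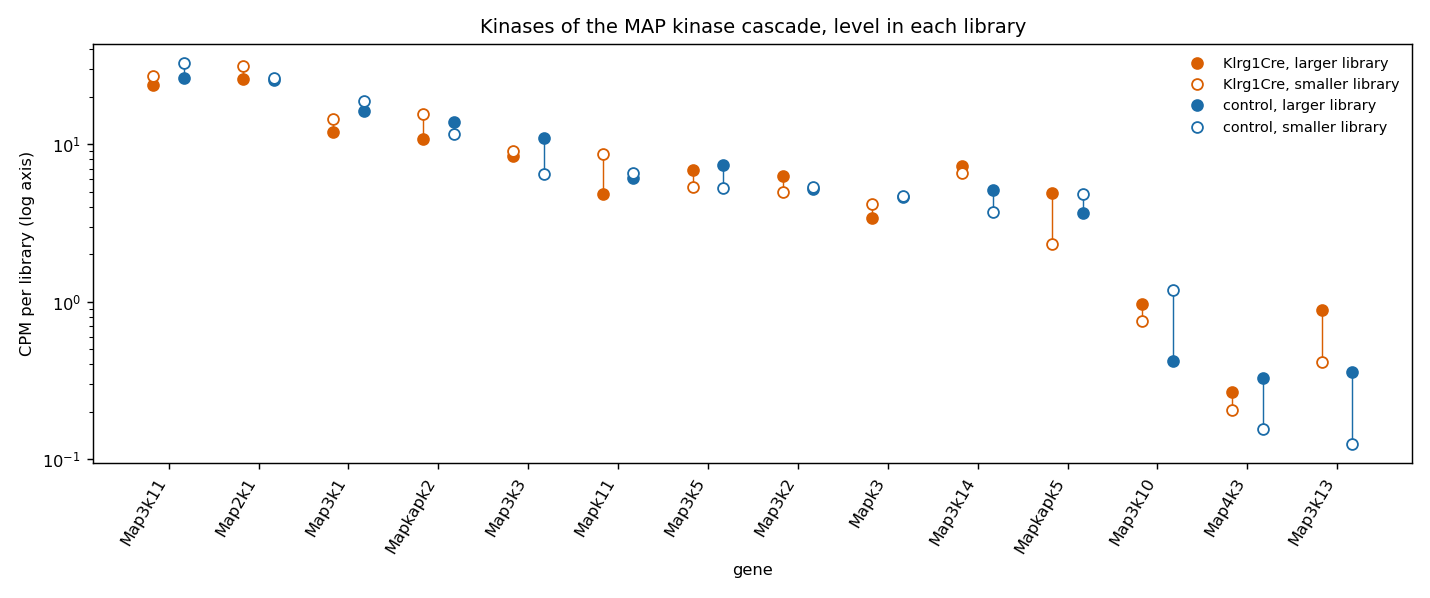
CPM in each library on a log axis is plotted for the 14 kinases worked out per library, Klrg1Cre in orange left of control in blue, with filled points for the larger and open points for the smaller library of a genotype. The orange points of Map3k14 and Map3k13 lie above the blue ones, those of Map3k1 and Mapk3 below, and the other 10 genes overlap.

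Map4k4, a kinase upstream of JNK, averaged 7.66 CPM in Klrg1Cre, against 4.88 CPM in control, a ratio of 1.57 (p = 0.0312, adjusted p = 0.644 in the authors' deposited table), and its libraries could not be separated. Map4k1 encodes HPK1, a brake on T cell receptor signalling, and had 30.3 CPM in Klrg1Cre, against 25.6 CPM in control. Map4k2, the germinal centre kinase, had 39.8 CPM in Klrg1Cre, against 47.3 CPM in control. Neither passed in the authors' deposited table (adjusted p = 0.764 and 0.769). Map4k3 and Map4k5 stood below 1 CPM in both genotypes. Of the kinases that p38 activates in turn, Mapkapk3 averaged 114.8 CPM in Klrg1Cre, against 102.4 CPM in control, and Mapkapk2, known for stabilising cytokine mRNA, had 10.8 and 15.5 CPM in the Klrg1Cre libraries and 13.9 and 11.6 CPM in the control libraries. Mapkapk5 had 4.92 and 2.33 CPM in the Klrg1Cre libraries, a range that enclosed both control values of 3.65 and 4.85 CPM.

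Among the 5 further genes, Mapk8ip1, which encodes a scaffold of the JNK relay, averaged 0.353 CPM in Klrg1Cre, against 1.08 CPM in control, a mean 3.07-fold lower in Klrg1Cre (p = 0.0358, adjusted p = 0.668 in the authors' deposited table). Of all genes, 3.37% had a lower mean in Klrg1Cre at an unadjusted p below 0.05. The scaffold gene Mapk8ip3 had 23.7 CPM in Klrg1Cre, against 21.6 CPM in control. Mapk1ip1 and Mapk1ip1l had 2.99 and 15.4 CPM in Klrg1Cre, against 2.90 and 14.3 CPM in control. Map2k3os had 9 and 11 reads in the Klrg1Cre libraries and 8 and 11 reads in the control libraries, which per library total put both Klrg1Cre libraries above both control libraries. The sources used here do not say whether reads were counted by strand, so reads of exons that overlap on opposite strands cannot be told apart. In GENCODE M21, 16 of the 60 genes share exon bases with a gene on the opposite strand. Mapk8ip1, Dusp13, Dusp3, Dusp5, Dusp11 and Map3k11 are among them, and Map2k3os and Map2k3 are not. Map3k14 shares some exon bases with a gene on its own strand.

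**Figure D4:**
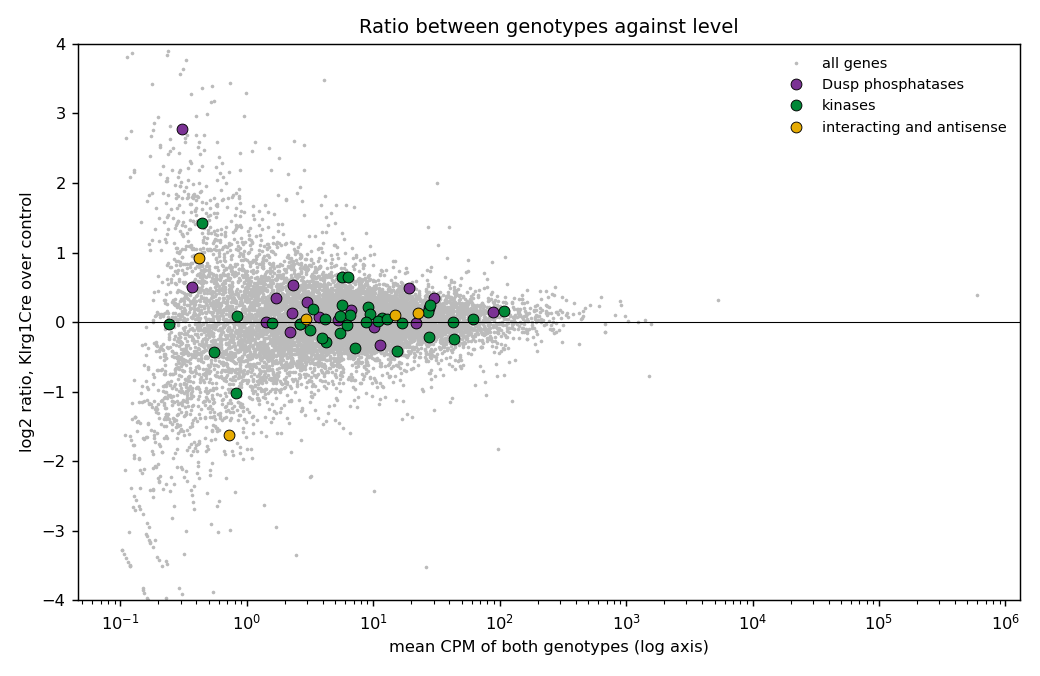
The log2 ratio of deposited means, Klrg1Cre over control, is plotted against the mean CPM of both genotypes on a log axis, with all genes of at least 0.1 CPM in grey and 59 of the 60 genes in colour. The 59 coloured points sit within the grey cloud, their widest ratios at low CPM, and 62 grey genes lie beyond the axis limits of 4 either way.

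Levels of different genes were compared per kilobase of exon, the union of coding transcripts in GENCODE M21, which need not be the gene models that the authors counted. On this scale Mapkapk3 (40.8 CPM per kb in Klrg1Cre, 36.4 in control), Dusp1 (39.4 in Klrg1Cre, 35.6 in control) and Map2k3 (28.6 in Klrg1Cre, 27.7 in control) stood highest in both genotypes. Map2k2 followed at 17.8 CPM per kb in both. The ERK1 gene Mapk3 stood at 1.88 CPM per kb in Klrg1Cre and 2.30 in control. The p38 genes Mapk14 (2.82 CPM per kb in Klrg1Cre, 2.71 in control) and Mapk11 (2.76 in Klrg1Cre, 2.58 in control) were close, and libraries of Mapk11 spread by more than the gap between them. The JNK gene Mapk9 (2.07 CPM per kb in Klrg1Cre, 1.92 in control) stood above Mapk8 (0.449 in Klrg1Cre, 0.460 in control) in both genotypes. Among the MKPs the order after Dusp1 was Dusp6 (12.1 CPM per kb in Klrg1Cre, 9.58 in control), Dusp5 (8.73 in Klrg1Cre, 8.79 in control) and Dusp10 (7.98 in Klrg1Cre, 5.70 in control). Dusp5 and Dusp10 are neighbours that do not separate in Klrg1Cre, where the libraries of Dusp5 were 1.33-fold apart.

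**Figure D5:**
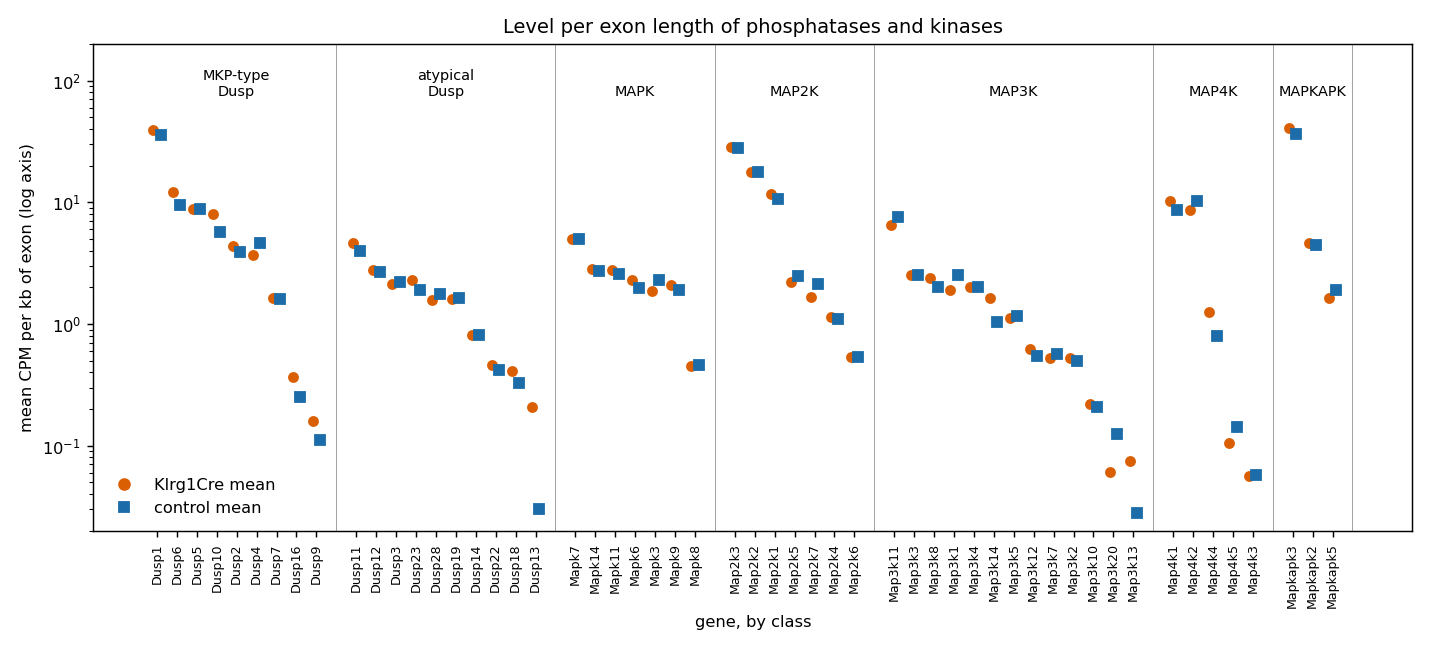
Deposited mean CPM per kb of exon on a log axis is plotted for the 19 phosphatases and 35 kinases, ordered within each class, with Klrg1Cre as orange circles left of control as blue squares. Mapkapk3, Dusp1 and Map2k3 stand highest, and the circle and square of most genes lie close together.

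The neighbouring genes of the cascade were likewise without a call: 0 passed the adjusted p of the authors' deposited table in any of 5 lists. Over all genes that share was 0.0589%, so a count of 0 in lists this short says little about them. At an unadjusted p below 0.05, 3.72% of all genes were higher in Klrg1Cre and 3.37% lower. Of 17 listed genes of Ras and Raf entry to the ERK branch, 2 were higher and 0 lower at an unadjusted p below 0.05, with a median log2 ratio of 0.06. These were Rasgrp2, a Rap and Ras exchange factor, at 9.30 CPM in Klrg1Cre, against 2.91 CPM in control (adjusted p = 0.102 in the authors' deposited table), and Rasgrp4 at 3.76 CPM in Klrg1Cre, against 2.23 CPM in control. Of 20 listed brakes of Ras and ERK outside the Dusp family, 2 were higher (Spry1 and Dok2) and 1 lower (Nf1), with a median of 0.20. Spry1, a feedback inhibitor of receptor signalling to ERK, averaged 2.22 CPM in Klrg1Cre, against 0.741 CPM in control. The Ras GTPase-activating gene Nf1 averaged 0.599 CPM in Klrg1Cre, against 1.65 CPM in control. Its larger and smaller libraries held 0.922 and 0.275 CPM in Klrg1Cre, against 1.08 and 2.22 CPM in control. The larger libraries of the 2 genotypes thus lay close together, at a low level. Dok2, an adaptor that recruits a Ras GTPase-activating protein, had 67.8 and 69.8 CPM in the Klrg1Cre libraries, against 52.6 and 55.9 CPM in the control libraries. The haematopoietic ERK phosphatase gene Ptpn7 averaged 72.2 CPM in Klrg1Cre, against 72.5 CPM in control.

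Of 24 listed activators of JNK and p38, 1 was higher at an unadjusted p below 0.05, against 3.72% of all genes, with a median of 0.05. It was Gadd45b, which activates the kinase encoded by Map3k4, at 19.2 and 20.5 CPM in Klrg1Cre, against 11.1 and 16.5 CPM in control. Of 7 kinases downstream of MAP kinases, 1 was higher, Rps6ka1, the ribosomal S6 kinase activated by ERK, averaging 108.4 CPM in Klrg1Cre, against 83.4 CPM in control (p = 0.0137, adjusted p = 0.584 in the authors' deposited table).

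Of 22 listed immediate early targets, 2 were higher and 3 lower at an unadjusted p below 0.05, against 3.72% and 3.37% of all genes. Their median log2 ratio was 0.11. Fos, the AP-1 subunit gene induced by ERK, had 68.7 and 71.6 CPM in the Klrg1Cre libraries, against 37.3 and 47.3 CPM in the control libraries. Ier2 was also higher, at 26.0 and 40.5 CPM in Klrg1Cre, against 20.4 and 19.1 CPM in control. Egr1, likewise induced by ERK, stood at 34.1 and 42.9 CPM in Klrg1Cre, against 50.7 and 48.1 CPM in control, and Egr2 and Zfp36l1 were the others with lower means. Zfp36l1, which encodes an mRNA decay factor, had 33.6 and 54.5 CPM in the Klrg1Cre libraries, against 76.0 and 89.1 CPM in the control libraries.

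Some markers of other cells differed in level beside these values, and their part in them was not tested. All 6 regulatory T cell markers had lower means in Klrg1Cre, 5 of them at an unadjusted p below 0.05, against 3.37% of all genes. The summed level of these 6 was 179.2 CPM in Klrg1Cre, against 311.2 CPM in control. Of 16 macrophage and monocyte markers, 8 had lower and 8 higher means, summing to 1895 CPM in Klrg1Cre, against 2692 CPM in control. The gap between these sums lies in Chil3, which alone had 1124 CPM in Klrg1Cre, against 1932 CPM in control. The sums therefore show no difference of the macrophage markers as a set. Of 6 ILC2 markers, 2 had higher and 2 lower means at an unadjusted p below 0.05, and their levels summed to 157.9 CPM in Klrg1Cre, against 258.4 CPM in control. Most of the gap between these sums lies in Klrg1 (4.19 CPM in Klrg1Cre, 48.4 CPM in control) and Arg1 (53.9 CPM in Klrg1Cre, 98.5 CPM in control). These sums too show no difference of the markers as a set. Klrg1 itself had 1.38 and 7.003 CPM in the Klrg1Cre libraries, against 42.0 and 54.9 CPM in the control libraries. Arg1 was the other with a lower mean, at 70.8 and 37.01 CPM in the Klrg1Cre libraries and 106.4 and 90.6 CPM in the control libraries, while Nmur1 (7.73 CPM in Klrg1Cre, 2.40 CPM in control) and Kit (1.29 CPM in Klrg1Cre, 0.356 CPM in control) had higher means. The alveolar macrophage gene Marco was listed at 0 in both control libraries and at 0.538 and 0.0687 CPM in the Klrg1Cre libraries. Of 6 listed B cell markers, 5 were in the table, with levels summing to 5.57 CPM in Klrg1Cre, against 6.78 CPM in control.

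The spread between libraries could be set against the difference between genotypes for 25 of the 60 genes. Of these 25, worked out per library with a mean of at least 1 CPM, 20 had libraries of 1 genotype farther apart than the 2 genotype means, a share of 80.0%, against 75.5% of all 4242 such genes. This measure sets the wider of 2 folds between single libraries against a fold between means of 2 libraries. A high share is thus likely even where genotypes do not differ. The widest fold between libraries of 1 genotype had a median of 1.40 over these 25 genes and 1.30 over all 4242, and the fold between genotype means a median of 1.11 over these 25 and 1.14 over all.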

How the data were processed

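RNA-seq values of 4 samples, 2 per genotype, were available as 1 table of genes that gives group means only. Per the submitters' processing notes, reads were processed with STAR and Partek against mm9, without versions. The authors' deposited group means are in CPM, with an offset of 0.0001 CPM. The deposited p-values come from a model not given in the sources used here, and adjusting them by Benjamini-Hochberg over all 11883 genes gave the adjusted values in the table. The deposited ratio, and the fold change that gives it a sign, is the quotient of the means. A deposited signal column headed total counts, which is 2 times the summed means, was not used.

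Each mean was split into whole reads of 2 libraries, to within 1e-09 reads, and this worked in both genotypes for 5351 genes (45.0%). Which library is which sample is unknown. The split and the test were checked on simulated data. Calls use the authors' p-values. As an alternative, limma 3.58.1 in R 4.3.3 with a trended variance was run on log2(CPM + 1) of the 4242 split genes averaging 1 CPM or more. Across genes, which are not independent replicates, Spearman's rho between limma's and the authors' p-values was 0.998. All 60 symbols matched the gene name table, and 50 had a promoter sequence. The genes named were those with an unadjusted p below 0.05, the 3 with the most CPM in each class, the 5 with the largest ratios among phosphatases and among kinases of at least 1 CPM, and a fixed set of core kinases and phosphatases. Other genes are named to account for every member or where a count of 5 or fewer rests on them, and those were picked after their values were seen. The members and lists were chosen with earlier results of these data known. Intervals on reads cover counting error only. The values of 1 kinase are not reported here, though counts over classes include it.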

Additional observations from a re-analysis of the deposited data

How the results depend on the processing

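The counts of calls were the same, 0 phosphatases and 0 kinases, at an unadjusted p below 0.01, with the adjustment made over genes of at least 1 CPM, with limma on the split libraries, and with limma after leaving out each library in turn, where the lone library is assumed to vary like the others. At an unadjusted p below 0.05 they were 1 and 3. Limma used the same libraries, and its p-values followed the authors' closely (Spearman's rho 0.998 across genes). Its counts are therefore not independent of theirs. The median log2 ratio of the phosphatases, 0.14, was 0.042 with 5 CPM added and 0.14 over those of at least 5 CPM. It was 0.12 with CPM scaled to listed genes other than Rn45s and 0.16 over the members with split libraries. Over those split members it was 0.13 to 0.25 when each library was left out in turn. The median of the kinases, 0.01, was 0.047 over those of at least 5 CPM, -0.015 when scaled to genes other than Rn45s, 0.027 over the split members, and -0.093 to 0.096 when each library was left out. Scaling to genes other than Rn45s moves the log2 ratio of every gene by the same -0.026, so that shift is not particular to the members. Adding 5 CPM draws the ratios of low genes towards equality by arithmetic. The cause of the other shifts was not tested. Of 36 named members, 16 could be recomputed with a library left out, and 7 of these changed sign under at least 1 such omission. These were Dusp1, Dusp2, Dusp4, Dusp5, Dusp3, Mapkapk2 and Mapkapk5. Of the other alternatives, only the scaling without Rn45s changed a sign, for Map3k4. The limma counts with a library left out, the limma counts at an unadjusted p and the medians over split members with all libraries were chosen after seeing the data. No paired analysis was possible because the deposited columns are group means and carry no replicate numbers. Members known only as group means, Map4k4 among them, have no value per library.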

Other observations

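The share of genes whose means were split into whole reads differed by the number of curated RefSeq transcripts of a gene. Among genes with 1 such transcript 81.1% were split in both genotypes, among those with 2 transcripts 7.48%, and among those with 3 or more 5.15%. For the members with at least 1 such transcript the counts were 28 of 31, 1 of 11 and 1 of 17. By class, 2 of 8 MAPK genes and 1 of 7 MAP2K genes were split, against 16 of 19 phosphatases.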
